A study of Drosophila melanogaster with 18 samples.

Results

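The mRNAs of oxidative phosphorylation subunits that are encoded in the nucleus were followed through reductive stress in Drosophila Schneider 2 (S2) cells, a line of embryonic origin with features of hemocytes, the insect blood cells. The set was a list of 48 genes, given by complex, and a gene was taken to be measured where the array carried a probe numbered with its CG gene number. Of the 48, 35 had a probe, each with 1 probe among the 7257 of the array. They were 12 of 17 subunits of complex I, 3 of 4 of complex II, 5 of 6 of complex III, 6 of 10 of complex IV and cytochrome c, and 9 of 11 of complex V. The other 13 (ND-23, ND-13A, ND-SGDH, ND-PDSW, ND-ASHI, SdhD, ox, COX5B, COX7A, COX6C, COX7C, ATPsynF and ATPsynG) were not analysed here. The 18 arrays form 6 groups of 3. Control cells were mock-treated and received no double-stranded RNA, and the other cells received double-stranded RNA against XBP-1 or against IRE1. Each of these was measured untreated and after treatment with DTT, at 2 mM for 7.4 hours. DTT is a reducing agent that disturbs disulphide formation in the endoplasmic reticulum (ER) and induces the unfolded protein response. IRE1 is the ER sensor that splices the XBP-1 mRNA, and the design asks how the response to DTT differs when either is the target of RNA interference (RNAi).

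The respiratory chain of the inner mitochondrial membrane passes electrons from NADH and succinate to oxygen. Complex I oxidises NADH and complex II oxidises succinate. Both hand electrons through ubiquinone to complex III, from which cytochrome c carries them to complex IV. Complexes I, III and IV pump protons, and complex V, the ATP synthase, lets the protons flow back and makes ATP. Most subunits are encoded in the nucleus, made in the cytosol and imported, and they are assembled with a few subunits encoded in mitochondrial DNA.

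Each value is the log2 ratio of a sample (Cy5) to a reference (Cy3) pooled from S2 cells with and without DTT and from embryos. The base of the logarithm and the direction of the ratio are not stated in the value table and were read in this way. A level is therefore relative to the reference, and levels of different probes were not compared. In arrays labelled IRE1 RNAi the Ire1 probe was not lower (mean 1.42 ± 1.11 without DTT, SD, n = 3, against -0.69 ± 0.09 in control), so that name is used as a label only. In the absence of DTT, the 2 Xbp1 probes had differences of -0.38 ± 0.36 and -0.41 ± 0.36 after XBP-1 RNAi relative to control cells (limma, adjusted p = 0.959 for both). Relative to each array's median, the 6 hemocyte genes of the marker list had medians of -1.31 (NimC1) to 0.12 (crq), with Hml measured on 2 arrays. The 6 genes of other tissues, which the embryos in the reference can supply, had medians of -4.54 (Mlc2), -2.52 (Mhc), -1.09 (vas), -0.925 (fkh), -0.805 (elav) and -0.675 (Act57B). Since a ratio to the reference is no level of a gene against another, these values do not test the identity of the cells. An array held 3755 to 6696 values, with the largest share of spots missing (48.3%) on the first replicate, A, of the DTT-treated IRE1 RNAi label, and array medians ran from -0.81 to 0.24. Of the 35 subunits, 25 had a value on all 18 arrays. The labels state triplicate experiments but do not say that replicate letters mark separate cultures. A p-value here therefore reflects how far these samples scatter, and that scatter may be technical.

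With DTT, subunits of all 5 complexes fell in both RNAi arms, and the number that fell in control cells ranged from below to about that of the RNAi arms, depending on the scaling and the replicate block. On the uncentred values without the block, no subunit rose. In control cells 6 of 35 subunits fell (limma, threshold 0.05 on the p-value adjusted over all probes), and 4.45% of all 5935 probes tested were called lower and 7.25% higher. Under XBP-1 RNAi 23 of 33 fell, against 11.8% of all probes lower and 4.53% higher. On the arrays labelled IRE1 RNAi 23 of 33 fell, against 10.5% lower and 3.48% higher. The median log2 change of the subunits was -0.75, -1.40 and -1.55 in the 3 arms, and the median of all probes was 0.15, -0.08 and -0.24. Relative to all probes the subunits' median was thus -0.90 in control cells, -1.32 under XBP-1 RNAi and -1.31 on the arrays labelled IRE1 RNAi. In RNA of a whole culture, fewer cells of a type and less RNA per cell cannot be told apart.

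The count in control cells depended on scaling, on the replicate letter and on single arrays. When each array was centred on its own median, 20 subunits fell and 1, cytochrome c, rose in control cells (12.1% of all probes lower). Under XBP-1 RNAi 26 then fell (16.5% of all probes) and on the arrays labelled IRE1 RNAi 25 (13.7%), and the median of all probes moved to 0.03, 0.12 and 0.02 in the 3 arms. With the replicate letter as a block, 13 subunits fell in control cells (7.92% of all probes), 28 under XBP-1 RNAi (17.9%) and 26 with the IRE1 RNAi label (17.1%), in a fit in which limma gave all probes 1 common variance. With quantile normalization 27 fell in control cells (14.6% of all probes), 25 under XBP-1 RNAi (15.6%) and 24 with the IRE1 RNAi label (12.4%). With centring and the block together 28, 28 and 26 fell (16.9%, 21.5% and 18.7% of all probes). Under these last 2 settings control cells had as many or more calls than the RNAi arms (of 35 subunits tested, against 33 in each RNAi arm). Cytochrome c was called higher in control cells under both, and UQCR-C1 was called higher under XBP-1 RNAi with centring and the block. Leaving out 1 control array without DTT moved the 6 calls to 3 (replicate A), 8 (replicate B) or 2 (replicate C). Leaving out 1 control array with DTT moved them to 14 (replicate A), 0 (replicate B) or 1 (replicate C). Under XBP-1 RNAi 23 became 15 without replicate A of the cells without DTT and 7 without replicate C of the cells with DTT. With the IRE1 RNAi label 23 became 15 when replicate A of the untreated arrays was left out, and 18 or 16 without replicate B or C of the arrays with DTT. The count was 24 without replicate C of the untreated arrays or without replicate A of those with DTT. Leaving out any single array, the median relative to all probes stayed between -1.09 and -0.77 in control cells, between -1.52 and -1.06 under XBP-1 RNAi and between -1.42 and -1.07 on the arrays labelled IRE1 RNAi.

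**Figure D1:**
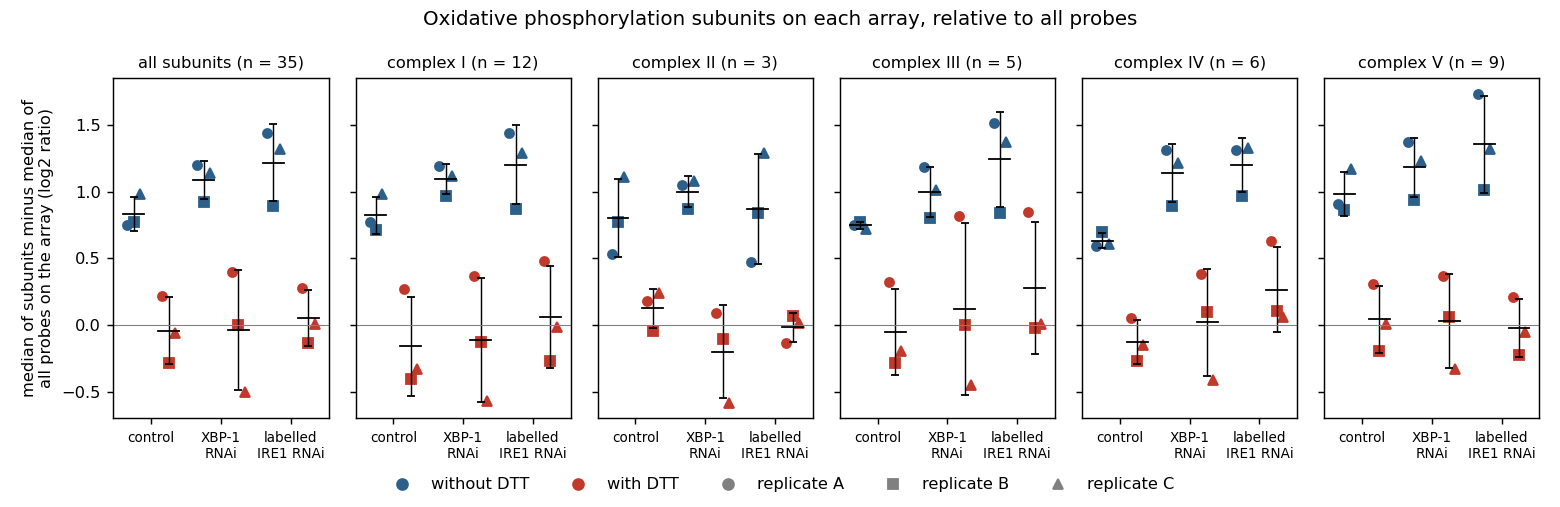
Median log2 ratio of the subunits on each array minus the median of all probes on that array, for all subunits and for each complex. Only subunits with a value on an array enter its point (28 to 35 of the 35). Points are arrays, horizontal lines group means and bars 1 SD over 3 arrays. For all subunits, every array without DTT (0.75 to 1.44) lies above every array with DTT (-0.50 to 0.395).

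On each array the median of the subunits was set against the median of all probes, which removes differences in overall scale. Only subunits with a value on an array enter its median, so the sets differ between arrays. The smallest, 28 in all and 7 for complex I, was on replicate A with DTT of the IRE1 RNAi label. Without DTT it was 0.75, 0.77 and 0.98 in control cells (values of a group are given in the order of replicates A, B and C). It was 1.195, 0.925 and 1.14 under XBP-1 RNAi and 1.44, 0.895 and 1.315 on the arrays labelled IRE1 RNAi. With DTT it was 0.22, -0.28 and -0.06, then 0.395, 0.00 and -0.50, and 0.28, -0.13 and 0.01 in the same 3 arms. The arrays with and without DTT did not overlap in any arm. Group means without DTT were 0.83 ± 0.13 (SD, n = 3), 1.09 ± 0.14 and 1.22 ± 0.29, and with DTT -0.04 ± 0.25, -0.035 ± 0.449 and 0.05 ± 0.21. The means of the 3 arms lay within 1 SD of each other with DTT, and without DTT control cells had the lowest mean.

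Taken by complex, the arrays with DTT lay below those without in every arm for complexes I, II, IV and V, and for complex III in control cells. For complex III, replicate A with DTT reached 0.82 under XBP-1 RNAi, where the lowest array without DTT was 0.80. That 0.82 rests on 4 subunits, since UQCR-C2, which fell in this arm, had no value there. Whether the overlap would remain with UQCR-C2 is not known. Replicate A with DTT reached 0.85 on the arrays labelled IRE1 RNAi, where the lowest was 0.84, with all 5 subunits measured. For complex I the mean relative to all probes was 0.82 ± 0.14 without and -0.155 ± 0.370 with DTT in control cells, 1.09 ± 0.11 and -0.11 ± 0.47 under XBP-1 RNAi, and 1.20 ± 0.30 and 0.065 ± 0.381 on the arrays labelled IRE1 RNAi. For complex V it was 0.98 ± 0.17 and 0.04 ± 0.25, 1.18 ± 0.22 and 0.03 ± 0.35, and 1.35 ± 0.36 and -0.02 ± 0.22. For complex IV it was 0.63 ± 0.06 and -0.12 ± 0.16, 1.14 ± 0.22 and 0.02 ± 0.40, and 1.20 ± 0.20 and 0.27 ± 0.32. By fitted changes with DTT the median of complex V was the lowest on the arrays labelled IRE1 RNAi (-1.87) and that of complex IV the highest in all 3 arms (-0.11, -0.67 and -0.75). Complex IV spans subunits that fell and subunits that did not, so its median lies between them.

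**Figure D2:**
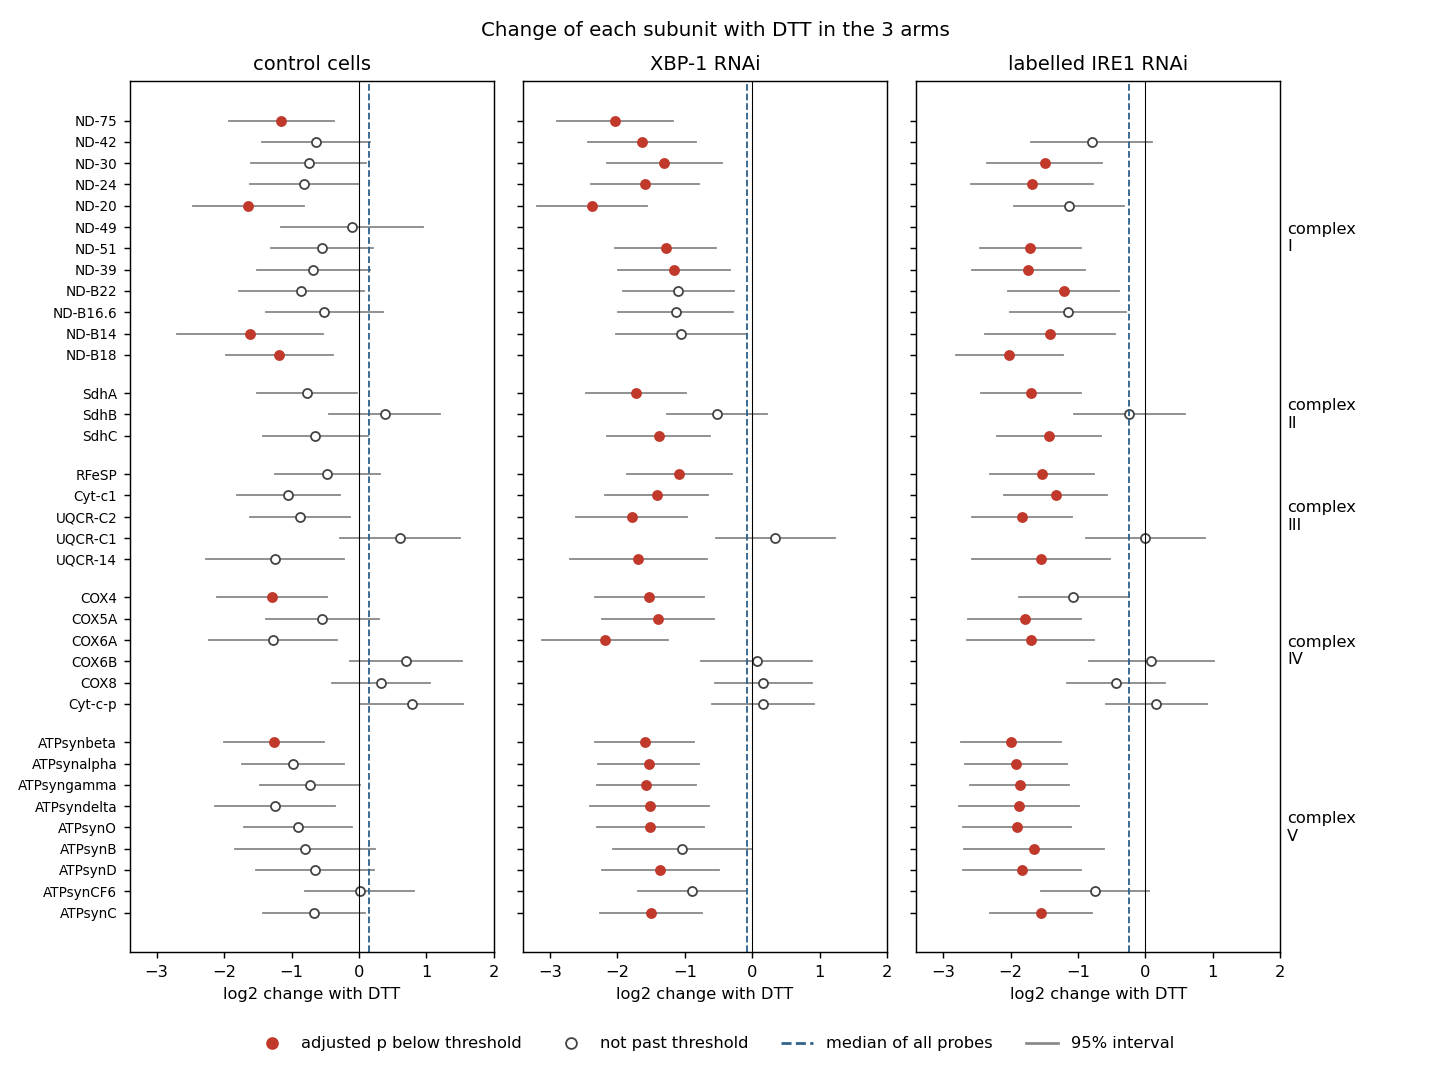
Log2 change with DTT of each subunit in the 3 arms (x axes), by complex, with 95% intervals from limma. Filled points pass the adjusted threshold and the dashed line is the median of all probes. Filled points number 6, 23 and 23, and SdhB, UQCR-C1, COX6B, COX8 and Cyt-c-p are open in every arm.

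In complex I, which carries electrons from NADH over a flavin and a chain of iron-sulphur clusters, 4 of 12 subunits fell in control cells, 7 of 10 under XBP-1 RNAi and 7 of 10 on the arrays labelled IRE1 RNAi. ND-51 (probe 9140), the core subunit that binds the flavin and oxidises NADH, read 0.93, 0.17 and 0.70 without DTT and 0.79, -0.44 and -0.20 with DTT in control cells. Under XBP-1 RNAi it read 1.42, 0.68 and 0.91 without DTT and 0.04, -0.11 and -0.77 with DTT, and for the IRE1 RNAi label 1.26, 0.82 and 0.59 without DTT and -0.85, -0.54 and -1.07 with DTT. The values with and without DTT overlapped in control cells and did not overlap in either RNAi arm. Letter by letter, ND-51 was lower with DTT in every control pair. Here and below, overlap of a subunit compares all arrays of a group as deposited. It uses neither centring nor the pairing by letter, so overlap does not mean that a subunit was unchanged. The change was -0.55 ± 0.37 (SE) in control cells (limma, adjusted p = 0.425), -1.28 ± 0.37 under XBP-1 RNAi (adjusted p = 0.0136) and -1.71 ± 0.37 on the arrays labelled IRE1 RNAi (adjusted p = 0.00173). ND-75 (probe 2286), an iron-sulphur subunit of the same NADH-oxidising end, read 0.02, -0.13 and 0.72 without DTT and -0.29, -1.30 and -1.26 with DTT in control cells. Under XBP-1 RNAi it read 0.90, 0.49 and 1.06 without DTT and -1.0 (A) and -1.45 (C) with DTT. The arrays did not overlap in either arm, and the changes were -1.15 ± 0.38 (adjusted p = 0.0451) and -2.04 ± 0.42 (adjusted p = 0.000937, from 2 arrays with DTT). For the IRE1 RNAi label it read -0.11, 0.60 and 0.89 without DTT and -1.37 on the only array with a value with DTT, which left no test.

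ND-20 (probe 9172) is an iron-sulphur core subunit next to the ubiquinone site, and its change was the lowest of the tested subunits in control cells and under XBP-1 RNAi. It read 1.40, 0.70 and 0.80 without DTT and -0.07, -1.36 and -0.59 with DTT in control cells. It read 1.82, 1.23 and 1.53 without DTT and -0.21, -0.63 and -1.70 with DTT under XBP-1 RNAi. It read 1.94, 1.31 and 1.28 without DTT and 0.78, 0.55 and -0.19 with DTT for the IRE1 RNAi label. All arrays with DTT lay below all without in each arm. The changes were -1.64 ± 0.40 (3.12 times lower; limma, adjusted p = 0.0053), -2.37 ± 0.40 (5.18 times lower; adjusted p = 8e-05) and -1.13 ± 0.40 (adjusted p = 0.0563, not past the threshold). With the replicate block the last change passed (adjusted p = 0.00342). The difference between the last 2 changes, 1.24, had an unadjusted p of 0.0344 and an adjusted p of 0.999 in limma, and it was the only difference between arms of any subunit that passed under any setting (1.34 with centring and the replicate block). ND-B18 (probe 5548), a supernumerary subunit outside the core, read 0.92, 0.14 and 0.25 without DTT and -0.94 (B) and -0.55 (C) with DTT in control cells and 1.32, 0.88 and 1.06 without DTT and -0.77 (B) and -1.09 (C) with DTT for the IRE1 RNAi label. Its arrays did not overlap in either arm, and its changes were -1.18 and -2.02 with 2 arrays with DTT in each (adjusted p = 0.0449 and 0.000736). ND-39 (probe 6020), a supernumerary subunit that binds NADPH, read 0.81, 0.39 and 0.32 without DTT and 0.51, -0.47 and -0.56 with DTT in control cells. It read 1.46, 0.66 and 1.02 without DTT and 0.74, 0.00 and -1.09 with DTT under XBP-1 RNAi. It read 1.57, 0.58 and 0.82 without DTT and -0.59, -0.53 and -1.12 with DTT for the IRE1 RNAi label. The ranges overlapped in control cells and under XBP-1 RNAi and were separate on the arrays labelled IRE1 RNAi, where the change was -1.74 ± 0.41 (adjusted p = 0.00366).

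Of the other complex I subunits, ND-B14 fell in control cells (-1.62, with 2 arrays without DTT) and on the arrays labelled IRE1 RNAi (-1.42), the latter not after centring. Under XBP-1 RNAi falls passed for ND-42 (-1.63), ND-24 (-1.59), a subunit of the NADH-oxidising module, ND-30 (-1.30), a core subunit of the module that reduces ubiquinone, and ND-39 (-1.16). On the arrays labelled IRE1 RNAi they passed for ND-24 (-1.68, 2 arrays with DTT), ND-30 (-1.50) and ND-B22 (-1.21). ND-B16.6 passed in no arm as deposited (-0.51, -1.14 and -1.15), and fell in both RNAi arms with centring and with the replicate block (adjusted p = 0.00278 and 0.00272). With the block ND-B14 (-1.06, adjusted p = 0.00586) and ND-B22 (-1.10, adjusted p = 0.00411) fell under XBP-1 RNAi too. In control cells 4 of 12 complex I subunits fell with the block, 7 with centring and 11 with quantile normalization. ND-49, a core subunit at the ubiquinone-binding site, had 5 values on 18 arrays and was tested in control cells only (-0.11). All complex I subunits tested had a change below 0 in each arm.

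In complex II, which is also the succinate dehydrogenase of the tricarboxylic acid cycle, SdhA and SdhC fell in both RNAi arms. Neither fell in control cells as deposited or with the replicate block, and both fell there with centring and with quantile normalization. SdhA (probe 17246), the flavoprotein that oxidises succinate, read 0.66, 0.25 and 0.97 without DTT and 0.42, -0.87 and 0.02 with DTT in control cells. It read 1.23, 0.58 and 0.98 without DTT and -0.71, -0.36 and -1.32 with DTT under XBP-1 RNAi. It read 0.31, 0.71 and 0.94 without DTT and -1.25, -0.95 and -0.94 with DTT for the IRE1 RNAi label. The highest control array with DTT lay above the lowest without, and the arrays did not overlap in either RNAi arm. The changes were -0.77 ± 0.36 (limma, adjusted p = 0.21), -1.73 ± 0.36 (adjusted p = 0.000968) and -1.70 ± 0.36 (adjusted p = 0.0017). SdhC (probe 6666), a membrane anchor, read 0.85, 0.21 and 0.42 without DTT and 0.36, -0.53 and -0.29 with DTT in control cells. It read 1.20, 0.78 and 1.18 without DTT and 0.18, -0.03 and -1.16 with DTT under XBP-1 RNAi. It read 1.58, 0.62 and 0.80 without DTT and -0.30, -0.19 and -0.79 with DTT for the IRE1 RNAi label, and its arrays overlapped in control cells only. Its changes were -0.65, -1.39 and -1.43. SdhB (probe 3283), the iron-sulphur subunit between them in the electron path, lay farthest from the median of the complex in each arm. It read 0.11 (A) and -0.16 (B) without DTT and 0.81, 0.03 and 0.22 with DTT in control cells. It read 0.21, 0.14 and 1.02 without DTT and -0.15, 0.33 and -0.38 with DTT under XBP-1 RNAi. It read -0.58, 0.11 and 0.13 without DTT and -0.10 (B) and -0.60 (C) with DTT for the IRE1 RNAi label. Arrays with and without DTT overlapped in each arm, and no change passed (0.38 ± 0.40, -0.52 ± 0.36 and -0.24 ± 0.40).

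In complex III, 4 of 5 subunits fell in each RNAi arm. In control cells none fell as deposited without the replicate block, and with it Cyt-c1 (limma, adjusted p = 0.00866), UQCR-C2 (0.0386) and UQCR-14 (0.00118) fell. Those 3 also fell there with centring, and 4 of 5 did with quantile normalization. RFeSP (probe 7361), the Rieske iron-sulphur protein that passes electrons from ubiquinol to cytochrome c1, read 0.72, 0.21 and 0.31 without DTT and 0.56, -0.33 and -0.41 with DTT in control cells. It read 1.29, 0.62 and 0.95 without DTT and 0.44, 0.21 and -1.03 with DTT under XBP-1 RNAi. It read 0.96, 0.57 and 0.74 without DTT and -0.73, -0.41 and -1.20 with DTT for the IRE1 RNAi label. The ranges overlapped in control cells only, and the changes were -0.47 ± 0.38, -1.08 ± 0.38 and -1.54 ± 0.38 (limma, adjusted p = 0.528, 0.0482 and 0.00542). Cyt-c1 (probe 4769), the haem subunit that reduces cytochrome c, read 0.74, 0.35 and 0.57 without DTT and 0.02, -1.02 and -0.48 with DTT in control cells. It read 1.23, 0.51 and 1.31 without DTT and -0.11, -0.02 and -1.08 with DTT under XBP-1 RNAi. It read 1.35, 0.68 and 1.10 without DTT and 0.21, -0.28 and -0.80 with DTT for the IRE1 RNAi label. It did not overlap in any arm, and its changes were -1.05 (adjusted p = 0.0696 without the block), -1.42 and -1.33.

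The core protein UQCR-C2 (probe 4169) read 0.88, 0.18 and 0.28 without DTT and 0.16, -0.77 and -0.66 with DTT in control cells. It read 1.35, 0.40 and 0.92 without DTT and -0.48 (B) and -1.32 (C) with DTT under XBP-1 RNAi. It read 0.85, 0.62 and 0.88 without DTT and -1.14, -0.73 and -1.28 with DTT for the IRE1 RNAi label. Its changes were -0.87 (adjusted p = 0.138 without the block), -1.79 (adjusted p = 0.00205, 2 arrays with DTT) and -1.83 (adjusted p = 0.000845), with no overlap between arrays in any arm. UQCR-14 (probe 3560), a small subunit, read 1.75, 0.42 and 0.88 without DTT and 0.65, -1.26 and -0.08 with DTT in control cells. It read 2.11, 1.32 and 1.86 without DTT and 0.72, 0.07 and -0.58 with DTT under XBP-1 RNAi. It read 2.97, 1.46 and 1.48 without DTT and 1.49, 0.15 and -0.39 with DTT for the IRE1 RNAi label. Arrays overlapped in control cells and on those labelled IRE1 RNAi, and the changes were -1.25 (adjusted p = 0.119 without the block), -1.69 and -1.55. UQCR-C1 (probe 3731), the partner core protein of UQCR-C2, read 0.88, 0.03 and 0.28 without DTT and 1.59, 0.34 and 1.08 with DTT in control cells. It read 1.33, -0.16 and 0.72 without DTT and 1.67, 0.89 and 0.36 with DTT under XBP-1 RNAi. It read 1.53, 0.30 and 0.45 without DTT and 1.29, 0.57 and 0.42 with DTT for the IRE1 RNAi label. Arrays with and without DTT overlapped in each arm, replicates A being the highest of their groups, and the changes were 0.61 ± 0.43, 0.34 ± 0.43 and 0.00 ± 0.43, none past the threshold (limma, adjusted p = 0.462, 0.677 and 1).

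In complex IV, cytochrome c oxidase, whose catalytic core is encoded in mitochondrial DNA, the 5 nuclear subunits measured divided into COX4, COX5A and COX6A, which fell in at least 1 arm, and COX6B and COX8, which fell in none. COX4 (probe 10664) read 1.06, 0.26 and 0.67 without DTT and 0.02, -1.47 and -0.43 with DTT in control cells. It read 1.71, 0.46 and 1.23 without DTT and 0.08, -0.18 and -1.08 with DTT under XBP-1 RNAi. It read 1.21, 0.84 and 0.83 without DTT and -0.01, 0.01 and -0.33 with DTT for the IRE1 RNAi label. It had no overlap in any arm and changed by -1.29 ± 0.40 (limma, adjusted p = 0.0304), -1.53 ± 0.40 (adjusted p = 0.00636) and -1.07 ± 0.40 (adjusted p = 0.0713, and 0.0062 with the replicate block). COX6A (probe 17280) read 1.11, 0.38 and 0.67 without DTT and 0.17, -1.52 and -0.31 with DTT in control cells. It read 2.33, 1.76 and 1.62 without DTT and 1.00, -0.62 and -1.22 with DTT under XBP-1 RNAi. It read 1.63, 0.82 and 1.27 without DTT and 0.07, -0.37 and -1.09 with DTT for the IRE1 RNAi label. All arrays with DTT lay below those without in each arm, and the changes were -1.27 (adjusted p = 0.075, and 0.000874 with the replicate block), -2.18 (adjusted p = 0.000993) and -1.70 (adjusted p = 0.0116). COX5A (probe 14724) read 0.47, 0.01 and 0.06 without DTT and 0.42, -1.06 and -0.46 with DTT in control cells. It read 1.31, 0.93 and 1.07 without DTT and 0.20, 0.31 and -1.39 with DTT under XBP-1 RNAi. It read 1.09, 0.79 and 0.84 without DTT and -0.52, -0.69 and -1.45 with DTT for the IRE1 RNAi label. Overlap was seen in control cells only, and the changes in the RNAi arms were -1.40 and -1.79.

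Cytochrome c itself was called lower in no arm. Cyt-c-p (probe 17903), the cytochrome c of somatic cells, read 0.97, 0.30 and 0.34 without DTT and 1.48, 0.96 and 1.54 with DTT in control cells. It read 1.61, 0.75 and 1.33 without DTT and 1.71, 1.73 and 0.72 with DTT under XBP-1 RNAi. It read 1.28, 0.70 and 1.00 without DTT and 1.36, 1.55 and 0.56 with DTT for the IRE1 RNAi label. The lowest control array with DTT was just under the highest without, and the RNAi arms overlapped widely. The changes were 0.79 ± 0.37, 0.16 ± 0.37 and 0.16 ± 0.37, and the first had an adjusted p of 0.203 as deposited and 0.0404 with centring (limma). COX6B, a small subunit of complex IV on the side of cytochrome c, changed by 0.69 ± 0.41, 0.06 ± 0.40 and 0.09 ± 0.45 in the 3 arms. COX8 changed by 0.32 ± 0.36, 0.16 ± 0.35 and -0.44 ± 0.36. Neither passed the threshold in any arm.

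In complex V, the ATP synthase, 1 of 9 subunits fell in control cells, 7 under XBP-1 RNAi and 8 on the arrays labelled IRE1 RNAi. In control cells 4 fell with the replicate block, 6 with centring and 8 with quantile normalization. ATPsynbeta (probe 11154), the catalytic subunit, fell in all 3 arms, the only 1 of 32 subunits tested in all of them to do so as deposited without the block. With the block 11 of the 32 did so, with centring 17 and with quantile normalization 21, ATPsynbeta among them each time. The share of all probes called lower in all 3 arms is not given here, so these counts have no background beside them. ATPsynbeta read 0.72, 0.37 and 0.44 without DTT and -0.14, -1.33 and -0.79 with DTT in control cells. It read 1.05, 0.65 and 0.60 without DTT and -0.89, -0.31 and -1.28 with DTT under XBP-1 RNAi. It read 1.16, 0.79 and 0.22 without DTT and -1.37, -0.93 and -1.50 with DTT for the IRE1 RNAi label. No array with DTT reached the lowest array without DTT in any arm. The changes were -1.26 ± 0.36 (2.4 times lower; limma, adjusted p = 0.0185), -1.59 ± 0.36 (3.02 times lower; adjusted p = 0.00204) and -1.99 ± 0.36 (3.97 times lower; adjusted p = 0.000364). ATPsynalpha (probe 3612), which alternates with the beta subunit in the F1 head, read 1.18, 0.32 and 0.85 without DTT and 0.37, -0.68 and -0.27 with DTT in control cells. It read 1.52, 0.38 and 1.08 without DTT and -0.39, -0.33 and -0.91 with DTT under XBP-1 RNAi. It read 0.79, 0.56 and 0.69 without DTT and -1.70, -0.81 and -1.21 with DTT for the IRE1 RNAi label. Overlap was seen in control cells only, and the changes were -0.98 ± 0.37 (adjusted p = 0.0889, and 0.0162 with the replicate block), -1.54 ± 0.37 (adjusted p = 0.00338) and -1.92 ± 0.37 (adjusted p = 0.000587).

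Subunits of the central and peripheral stalks fell in the RNAi arms as well. ATPsyngamma (probe 7610), the central stalk, read 1.49, 0.67 and 1.48 without DTT and 1.16, -0.17 and 0.47 with DTT in control cells. It read 1.94, 1.40 and 1.88 without DTT and 0.44, 0.37 and -0.31 with DTT under XBP-1 RNAi. It read 1.71, 1.48 and 1.63 without DTT and -0.42, -0.02 and -0.34 with DTT for the IRE1 RNAi label. Its changes were -0.73 (not past the threshold), -1.57 and -1.87, with overlap in control cells only. ATPsyndelta (probe 2968), also of the central stalk, read 0.85, -0.13 and 1.05 without DTT and 0.15, -1.27 and -0.84 with DTT in control cells. It read 1.57, 1.11 and 1.40 without DTT and 0.13, 0.67 and -1.29 with DTT under XBP-1 RNAi. It read 1.68, 0.79 and 1.33 without DTT and -0.43, -0.54 and -0.86 with DTT for the IRE1 RNAi label. Its changes were -1.24 (adjusted p = 0.0597, and 0.00122 with the replicate block), -1.52 and -1.88, again with overlap in control cells only. ATPsynO (probe 4307), the cap of the peripheral stalk that holds the head still, read 0.92, 0.26 and 0.91 without DTT and 0.55, -0.85 and -0.32 with DTT in control cells. It read 1.41, 0.92 and 1.16 without DTT and 0.23, 0.03 and -1.30 with DTT under XBP-1 RNAi. It read 1.16, 0.79 and 0.83 without DTT and -1.23, -0.63 and -1.07 with DTT for the IRE1 RNAi label. Arrays overlapped in control cells and in no RNAi arm, and the changes were -0.90 (adjusted p = 0.162, and 0.0298 with the replicate block), -1.51 and -1.90. ATPsynC, which forms the proton-driven ring, changed by -1.50 and -1.55 in the RNAi arms and ATPsynD, of the peripheral stalk, by -1.36 and -1.84, all past the threshold. ATPsynB, of the same stalk, fell with the IRE1 RNAi label (-1.65), and under XBP-1 RNAi (-1.04) its adjusted p was 0.175, and 0.00698 with the replicate block. ATPsynCF6, the remaining stalk subunit, lay farthest from the median of complex V in each arm (0.01, -0.90 and -0.74) and passed in none as deposited without the block. Under XBP-1 RNAi it passed with centring (limma, adjusted p = 0.0414) and with the block (adjusted p = 0.0239).

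Single arrays ended many of these calls. Each of the 6 calls in control cells ended without at least 1 of the 6 control arrays, with changes then of -1.445 to -0.87. Under XBP-1 RNAi 14 of 23 calls ended under at least 1 setting, all 14 without replicate C of the cells with DTT among others, and the changes under the settings that ended them were -1.52 to -0.63. The 9 that did not end under any setting in which they could be tested were ND-75, ND-42, ND-20, SdhA, UQCR-C2, COX6A, ATPsynbeta, ATPsynalpha and ATPsyngamma. Of these, ND-75 and UQCR-C2 could not be tested without replicate C of the cells with DTT, as fewer than 2 values remained. With the IRE1 RNAi label 8 calls ended (ND-30, ND-B22, ND-B14, SdhC, Cyt-c1, UQCR-14, COX6A and ATPsynB), all of them when replicate A of the untreated arrays was left out, among other settings, at changes of -1.61 to -0.815. The other 15 did not end under any setting in which they could be tested, ATPsynbeta, ATPsynalpha, ATPsyngamma, ATPsynO, SdhA, UQCR-C2 and ND-51 among them. ND-24 and ND-B18, also among the 15, could not be tested without replicate B or C of the arrays with DTT.

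**Figure D3:**
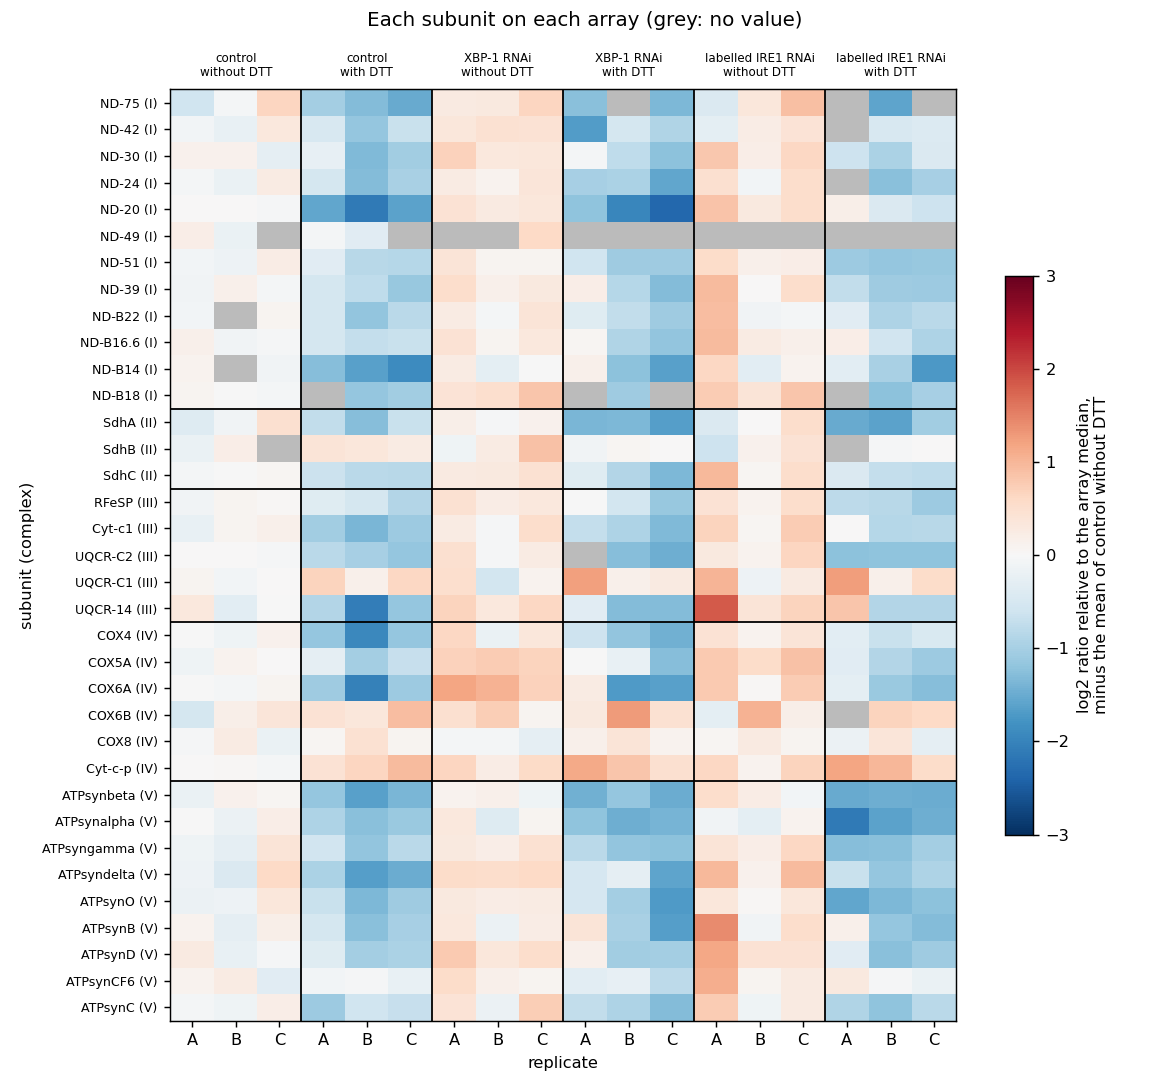
Each subunit (rows, by complex) on each array (columns, by group and replicate), as log2 ratio relative to the array's median minus the mean of control without DTT. Blue is lower, red is higher and grey has no value. Most rows are blue on the arrays with DTT, and the rows of SdhB, UQCR-C1, COX6B, COX8 and Cyt-c-p are pale or red there.

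Overlap of arrays was also counted without a model, on the values as deposited, in which differences of array scale remain. Among subunits with a value on all arrays of an arm, all arrays with DTT lay below all arrays without for 8 of 30 in control cells, against 8.81% of all such probes. The same held for 22 of 31 under XBP-1 RNAi, against 20.8% of probes, and for 24 of 28 on the arrays labelled IRE1 RNAi, against 27.5%. As deposited, no subunit had all its arrays with DTT above those without in any arm. After centring, ND-51, SdhA, RFeSP, ATPsynalpha, ATPsyngamma and ATPsynO no longer overlapped in control cells. For ND-51 the lowest centred control value without DTT was 0.73 and the highest with DTT 0.55. ND-30, ND-49, COX6B, COX8 and ATPsynCF6 still overlapped there. Cyt-c-p, UQCR-C1 and SdhB then had all measured control arrays with DTT above those without. Counts over all probes after centring are not given here. Of 32 subunits tested in all 3 arms, 26 had a change below 0 in each arm and 19 were called in both RNAi arms. The matching shares of all probes are not given here. Under 23 alternative settings, those that left out an array included, ND-49 (tested in control cells only), SdhB, UQCR-C1, COX6B, COX8 and Cyt-c-p were called lower in no arm.

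Calls made in an RNAi arm and not in control cells do not show that the arms differ, and the difference itself was not called for any subunit. The change with DTT under XBP-1 RNAi minus that in control cells was called for 0 of 33 subunits in limma, against 0.802% of all probes, and 0 had an unadjusted p under 0.05. Its median was -0.63 for the subunits and -0.28 for all probes, and it was below 0 for 32 of 33. The share of all probes below 0 is not given here. For the arrays labelled IRE1 RNAi minus control the count was 0 of 33, against 0.0894% of all probes. There 3 subunits had an unadjusted p under 0.05 (ND-51, -1.16; COX5A, -1.25; ATPsyngamma, -1.14), and the medians were -0.75 for the subunits and -0.44 for all probes. With centring the medians of the first difference became -0.32 and 0.03, and of the second -0.35 and -0.07. These comparisons share the control arrays. Between both RNAi arms the count was 0 of 32 (0% of all probes), 1 had an unadjusted p under 0.05, and the medians were -0.11 and -0.18.

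Without DTT, most subunits had a higher mean in both RNAi groups than in control cells, and no single subunit was called. XBP-1 RNAi minus control was above 0 for 34 of 34 subunits with a median of 0.51, while the median of all probes was 0.22. No subunit was called in limma (0% of all probes), and 3 had an unadjusted p under 0.05. With centring 31 of 34 were above 0. With the IRE1 RNAi label 31 of 34 were above control with a median of 0.35, against 0.03 for all probes. Again none was called (0% of all probes), and 0 had an unadjusted p under 0.05. The shares of all probes above 0 are not given here. The subunits varied together between arrays, so these counts are not independent results. Because no double-stranded RNA was given to the control cells, the target of the RNAi and the treatment as such cannot be told apart, and both comparisons use the same control arrays.

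The subunits varied together from array to array. Across 18 arrays, each centred on its median, pairs of the 25 complete subunits had a median Pearson correlation of 0.805 over 300 pairs, against 0.015 over pairs of all complete probes. Pairs within a complex (median 0.82, 63 pairs) and pairs from different complexes (0.80, 237 pairs) were alike in this measure. After each group's mean was subtracted, the median over pairs was 0.54, against 0.028 for all probes. These correlations describe the same 18 arrays, on which all probes share hybridisation and scaling. SdhC had the highest median correlation with the other subunits (0.90) and COX8 the lowest (-0.34).

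Lists of genes that work with the complexes had smaller shares called lower than the subunits, and some of their genes rose. Other subunits and isoforms of the complexes had 0 of 12 lower in control cells, 1 of 9 under XBP-1 RNAi and 1 of 13 on the arrays labelled IRE1 RNAi. In both RNAi arms this was the complex I subunit ND-15 (-1.42 and -1.63). Most of this list are isoforms, such as ND-51L1 and Cyt-c-d, so its counts say little about the remaining subunits. ND-B17 (-0.48, -0.98 and -0.68) and ATPsynE (-0.78, -0.94 and -1.15) were below 0 in the 3 arms, none past the threshold. ND-ACP (0.76, -0.46 and -0.18) was above 0 in control cells, as was ND-13B (0.09), which changed by -0.39 on the arrays labelled IRE1 RNAi. Assembly factors had 0 of 13, 1 of 13 and 4 of 12 lower. The copper chaperone of complex IV, Scox, fell by 1.56 on the log2 scale under XBP-1 RNAi and by 1.24 on the arrays labelled IRE1 RNAi, where the insertase OXA1L (-1.07), the complex I assembly factor ECSIT (-1.01) and the haem lyase of cytochrome c, Cchl (-0.98), fell too. The calls of these 4 on the arrays labelled IRE1 RNAi, and that of ND-15 under XBP-1 RNAi, ended when any of at least 2 arrays was left out, with changes of -1.24 to -0.80. ECSIT was also not called after quantile normalization (-0.60).

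Pyruvate dehydrogenase and tricarboxylic acid cycle enzymes, which supply NADH and succinate, had 0 of 17 lower in control cells, 7 of 17 under XBP-1 RNAi and 8 of 18 on the arrays labelled IRE1 RNAi. Their median relative to all probes was -0.61, -0.80 and -0.64. Under XBP-1 RNAi the succinyl-CoA ligase subunit ScsbetaG (-1.55), the aconitase mAcon1 (-1.54) and the citrate synthase kdn (-1.53) fell most, then Scsalpha1 (-1.51), whose call ended without replicate C of the cells with DTT (-1.20). With the IRE1 RNAi label the dihydrolipoamide dehydrogenase CG7430 (-1.75), ScsbetaG (-1.74), kdn (-1.61) and the fumarase Fum1 (-1.54) fell most. Mitochondrial ribosomal proteins, which serve the subunits encoded in mitochondrial DNA, had 0 of 40 lower and 1 higher, 6 lower and 1 higher, and 9 lower and 1 higher in the 3 arms. The one that rose was mRpL28 in each arm (1.79, 1.04 and 1.08), and single arrays ended its calls in the RNAi arms (0.86 to 1.055). Those that fell most were mRpL2, mRpL51, mRpL9 and mRpL47 in both RNAi arms (-1.92 to -1.29 and -1.74 to -1.47). All 4 lost their calls without replicate C of the cells with DTT under XBP-1 RNAi (-1.32 to -0.91), and when replicate A of the untreated arrays was left out in the other arm (-1.475 to -1.09).

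The lists of carriers, of import genes and of mitochondrial DNA maintenance and transcription each included genes that rose. Carriers had 3 of 16 higher in control cells, 2 higher and 2 lower under XBP-1 RNAi, and 2 higher and 4 lower on the arrays labelled IRE1 RNAi. The aspartate-glutamate carrier aralar1 rose by 2.05, 1.66 and 1.17 in the 3 arms (adjusted p = 0.0499 in the last), and the iron carrier mfrn by 1.56, 1.07 and 1.27 in the 3 arms. CG9399 rose in control cells (1.19). The outer membrane channel porin (-1.40 and -2.23) and the glutamate carrier GC1 (-1.26 and -1.39) fell in both RNAi arms, and the citrate carrier sea (-1.26) and the ADP/ATP carrier sesB (-1.20, adjusted p = 0.0168) fell on the arrays labelled IRE1 RNAi. The values of sesB and of aralar1 in that arm, and those of mRpL28 in both RNAi arms, lie outside the rule for named genes. They were added after they were seen. Import genes had 3 of 12 higher in control cells, the processing peptidase subunit CG8728 (1.33), Roe1 (1.21) and CG7394 (1.07), and none called in the RNAi arms (0 of 11 in each, with 4 and 2 at an unadjusted p under 0.05). The list of mitochondrial DNA maintenance and transcription had 2 of 10, 2 of 10 and 1 of 10 higher. The members that rose were Alas, the first enzyme of haem synthesis (3.39, 2.42 and 2.26), and bsf, an RNA-binding protein (1.61 in control cells and 1.05 under XBP-1 RNAi). Single arrays ended the calls of CG9399 (0.97 to 1.18), Roe1 (0.905 to 1.385) and CG7394 (0.895 to 1.10) in control cells, of mfrn (0.63 to 1.07), bsf (0.75 to 1.14), GC1 (-1.31 to -0.91) and porin (-1.47 to -0.885) under XBP-1 RNAi, and of GC1 (-1.105 to -1.06) and sea (-1.065 to -0.997) on the arrays labelled IRE1 RNAi. The same held in that arm for aralar1 (0.895 to 1.275) and sesB (-1.08 to -1.045). Centring also ended the call of porin under XBP-1 RNAi.

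**Figure D4:**
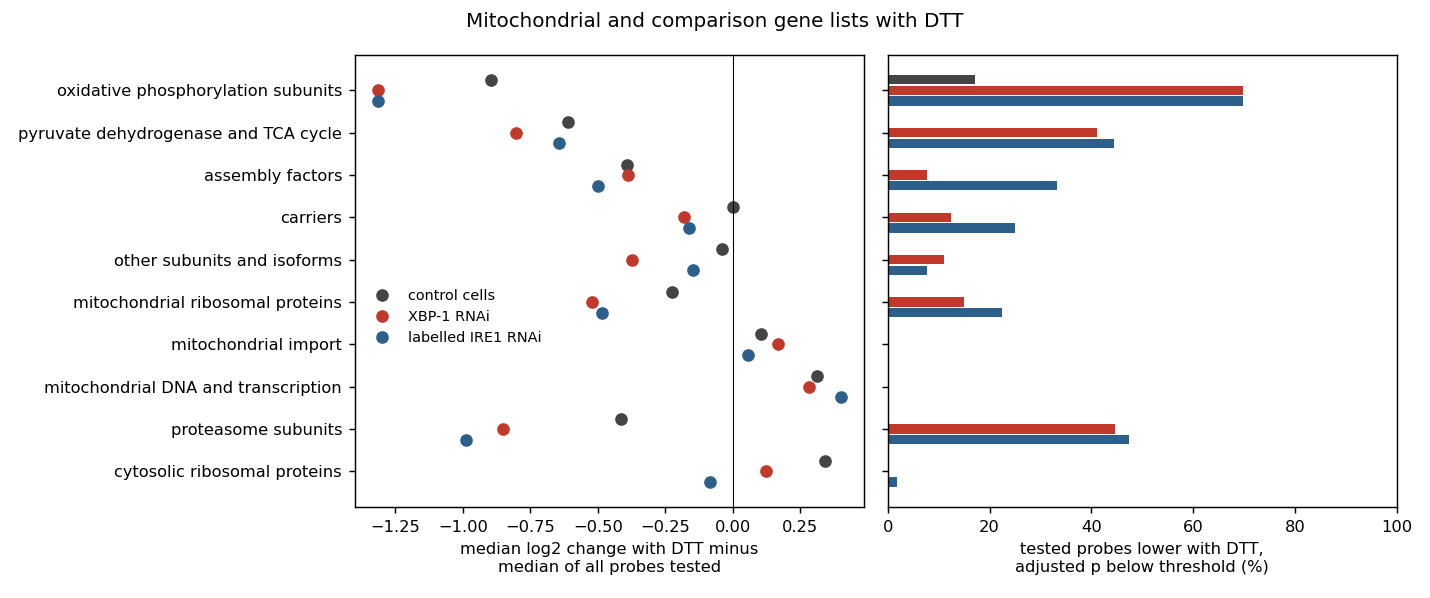
Lists of mitochondrial and other genes: median log2 change with DTT minus the median of all probes (left) and share of tested probes called lower (right), as deposited, in the 3 arms. The subunits have the lowest median of these lists in each arm (-0.90, -1.32 and -1.31) and, at 69.7% in each RNAi arm, the largest share called lower.

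Outside the mitochondrion, cytosolic ribosomal proteins and proteasome subunits, which are also made in large amounts, are given for comparison. Of the ribosomal proteins 1 of 56 rose in control cells, none was called under XBP-1 RNAi (0 of 56, 0 at an unadjusted p under 0.05) and 1 of 56 fell on the arrays labelled IRE1 RNAi, with medians relative to all probes of 0.34, 0.125 and -0.085. Of the proteasome subunits 0 of 41, 17 of 38 and 18 of 38 fell, with medians of -0.41, -0.85 and -0.99. Differences between lists were not tested.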

How the data were processed

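RNA of 18 S2 cell samples was hybridised in Cy5 against a common Cy3 reference on spotted arrays. Per the labels' protocols, the authors normalized the arrays with NOMAD and removed spots under 1.5-fold above background, under an R2 of 0.5 or visibly defective. The deposited values are log ratios, read as log2 of sample over reference; the base and direction are not given in the sources used here. Probes are numbered by CG gene number: 99.9% of the numbers are genes of the annotation, against 41.7% of all whole numbers in the range, and 7139 of 7257 probes were named by it.

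The members and gene lists were chosen with earlier results of these data known. Subunits named with array values were 1 or more fixed representatives of each complex and up to 3 further called subunits per complex with the largest change.

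The 6 group means were fitted to the 18 arrays with limma 3.58.1 in R 4.3.3, on the values as deposited, for probes with 2 or more values in every group that a contrast uses. P-values were adjusted (Benjamini-Hochberg) over all probes tested, with a threshold of 0.05, for 8 contrasts. The script was tested on simulated data. The number of arrays limits the precision. Alternatives were centring, quantile normalization, complete probes, the replicate letter as a block, and leaving out each array. Deviations of same-letter arrays from their group means correlated over 0.1 in 44 of 45 pairs (lowest 0.0115, median 0.44), and in all 9 pairs within arms. The letters were therefore taken to pair the samples within an arm, and the blocked counts were already known when this was decided. The block was fitted as a letter effect shared by all 6 groups, not as a pairing within each arm. The main counts are from the fit without it.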

Additional observations from a re-analysis of the deposited data

How the results depend on the processing

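The subunits' median change with DTT relative to all probes stayed below 0 under all alternatives, and the number called in control cells did not keep its size. With DTT in control cells 6 subunits were called as deposited, 21 with centring, 28 with quantile normalization, 13 with the replicate block and 29 with centring and the replicate block (1 of the 21, 28 and 29 was higher, cytochrome c). Leaving out 1 array gave 0 to 14 in control cells, 7 to 25 under XBP-1 RNAi and 15 to 24 on the arrays labelled IRE1 RNAi. Centring with the replicate block gave 1 subunit, ND-20, whose change differed between both RNAi arms. In the RNAi arms (XBP-1, then IRE1 label) 23 and 23 became 26 and 25 with centring, 25 and 24 with quantile normalization, 28 and 26 with the replicate block, and 29 and 26 with both centring and the block (1 of the 29, UQCR-C1, was higher). Control cells thus had as many calls as the RNAi arms, or more, with quantile normalization and with centring and the block. Single arrays ended all 6 calls in control cells, 14 of 23 under XBP-1 RNAi and 8 of 23 on the arrays labelled IRE1 RNAi; the cause was not tested. Limits are the 3 arrays of each group, spots missing in 18.8% of the table's entries, and 13 of 48 subunits without a probe.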
